A study of Homo sapiens with 8 samples.

Results

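The immediate early response genes are genes that cells transcribe at once after a growth factor, stress or calcium signal, without first making new protein. Here the set was a fixed list of 33 such genes, read in the authors' table of reads per promoter window. Of the 33 genes, 30 could be matched by position to a window among the 19957 in the table, and 29 held enough reads to be tested. The list held 8 basic leucine zipper genes of the AP-1 group, 3 EGR zinc finger genes, 4 KLF zinc finger genes, 3 NR4A orphan nuclear receptor genes and 3 DUSP phosphatase genes, besides 12 genes outside these families.

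RPE1 is an established line of retinal pigment epithelial cells immortalised with telomerase, and OGAP-seq sequences DNA fragments pulled down for base damage. The counts do not show which kind of damage a fragment carried. The series compared cells depleted of NuMA (KD), a nuclear and spindle pole protein also named TDIF in the labels, with cells that were not (WT), in 4 groups of 2 libraries: KD OGAP, KD input, WT OGAP and WT input. Input is genomic DNA that did not go through the pull-down. KD cells are those labelled post-doxycycline and WT cells had none, so the agent and the depletion cannot be told apart. Whether replicate libraries stem from separate cultures is not stated in the labels, so a p-value here reflects only the spread between libraries, which may be technical. All values count DNA, and none is a transcript level.

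In the textbook pathway, ERK and other MAP kinases activate ELK1 and related partners of SRF at CArG boxes, and the kinases they switch on activate CREB at cyclic AMP response elements (CREs). The first products are the transcription factors FOS, JUN, EGR and their relatives. Others are brakes on the same pathway: DUSP phosphatases remove the phosphates from MAP kinases, and ZFP36 sends AU-rich messenger RNAs to decay.

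Promoter sequences from RefSeq (GRCh38.p14, the assembly of hg38) were found for 22 of the 30 members with a window. The 4 shown are those of the members that changed in WT and had a sequence, JUND, JUNB, SRF and NR4A1. Each is the 250 bases before the gene start, 5′ to 3′ on the gene's own strand. The start used here is the outermost one of the gene in RefSeq, and promoters at any other start were not read. They lie at chr19:18281623-18281872 on the minus strand for JUND, and on the plus strand at chr19:12791236-12791485 for JUNB, chr6:43171019-43171268 for SRF and chr12:52022582-52022831 for NR4A1. Capitals mark matches on either strand to the CRE (TGACGTCA), the AP-1 site (TGANTCA), the GC box (GGGCGG), the CArG box or the TATA box (TATAAA).
JUND: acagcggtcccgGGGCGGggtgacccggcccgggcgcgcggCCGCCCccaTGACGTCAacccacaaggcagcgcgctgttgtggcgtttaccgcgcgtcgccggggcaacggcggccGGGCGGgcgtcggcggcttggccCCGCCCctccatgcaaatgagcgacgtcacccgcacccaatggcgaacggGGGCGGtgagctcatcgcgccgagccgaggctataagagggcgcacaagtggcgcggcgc
JUNB: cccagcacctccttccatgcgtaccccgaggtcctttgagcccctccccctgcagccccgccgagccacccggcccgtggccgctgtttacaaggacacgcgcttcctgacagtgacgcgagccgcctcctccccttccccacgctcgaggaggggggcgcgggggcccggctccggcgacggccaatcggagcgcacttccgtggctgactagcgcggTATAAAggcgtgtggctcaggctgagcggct
SRF: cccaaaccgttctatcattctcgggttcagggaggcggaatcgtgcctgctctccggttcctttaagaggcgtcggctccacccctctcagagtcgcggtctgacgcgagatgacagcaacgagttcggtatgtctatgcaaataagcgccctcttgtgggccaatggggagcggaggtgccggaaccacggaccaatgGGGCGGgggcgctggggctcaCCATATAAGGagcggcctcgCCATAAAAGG
NR4A1: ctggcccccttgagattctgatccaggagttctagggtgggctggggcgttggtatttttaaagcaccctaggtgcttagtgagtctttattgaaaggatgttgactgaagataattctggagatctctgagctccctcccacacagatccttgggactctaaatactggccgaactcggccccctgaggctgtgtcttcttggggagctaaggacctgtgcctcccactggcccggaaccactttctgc

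The JUND stretch held 1 CRE, at -200 to -193 from the start, and 5 GC boxes. The JUNB stretch held a TATA box at -31 to -26 and none of the other marked motifs. In SRF, which encodes the factor that binds CArG boxes, 2 CArG boxes lay at -30 to -21 and at -10 to -1, with 1 GC box at -51 to -46. None of the marked letters occurred in the NR4A1 stretch, and no marked match overlapped another in these 4. Across the 22 members searched, 12 (54.5%) held the short CRE form TGACG, against 27.1% of the 11416 named windows with a sequence. The full CRE was found in 2 members (9.09%), JUND and DUSP1, against 2.47% of all. A TATA box stood in 7 members (31.8%), against 9.1% of all, and the EGR site GCGNGGGCG, which can overlap a GC box and is not marked, in 7 (31.8%), against 11.7% of all. CArG boxes were found in EGR1 and SRF (9.09%, against 1.14% of all), GC boxes in 14 members (63.6%, against 58.5% of all) and the AP-1 site in none, against 4.73% of all. These are letter matches and show nothing about binding in these cells.

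The 8 libraries held 368593 to 771138 promoter reads, fewest in WT OGAP, with a median of 17 to 38 reads per window. Levels are given as reads and as CPM, the usual count scaled for depth, here with TMM, a method that sets the typical window equal across libraries. Higher or lower therefore means relative to other promoters, not an absolute amount of damage. Replicates differed by more than sampling noise in every group, at 1.91 to 2.15 chi-square units per degree of freedom. Of the 33 genes, MAFF, EGR2 and NR4A2 were matched to no window by their RefSeq start and were not analysed here. Their Ensembl identifiers were not looked up, so a window for them may exist. IER2, a gene named for its immediate early induction, had a window that overlaps another, with 0 reads in all 4 OGAP libraries and 1 or 2 in each input library, and was not tested. KLF4 and DUSP6 were matched by a window that holds their start 714 and 771 bp from its centre.

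In DNA that was not pulled down, most of the 29 windows ranked above the middle of all tested windows. Above it lay 21 and 18 of them in KD input, and 26 and 23 in WT input. Their median percentile by CPM was 68.8 and 59.5 in KD input, and 70.5 and 70.2 in WT input. In the pull-down it was 50.3 and 59.6 in KD OGAP, and 54.8 and 38.3 in WT OGAP. The second WT OGAP library thus stood lowest, and the difference between the libraries of that group was larger than any between the input libraries of 1 group. Added over the 29 windows, the level was 1690 and 1750 CPM in KD OGAP, 1890 and 1740 CPM in KD input, 1570 and 1620 CPM in WT OGAP, and 2090 and 2110 CPM in WT input. The 4 KD libraries thus lay between the WT OGAP libraries, which were lowest, and the WT input libraries, which were highest.

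**Figure D1:**
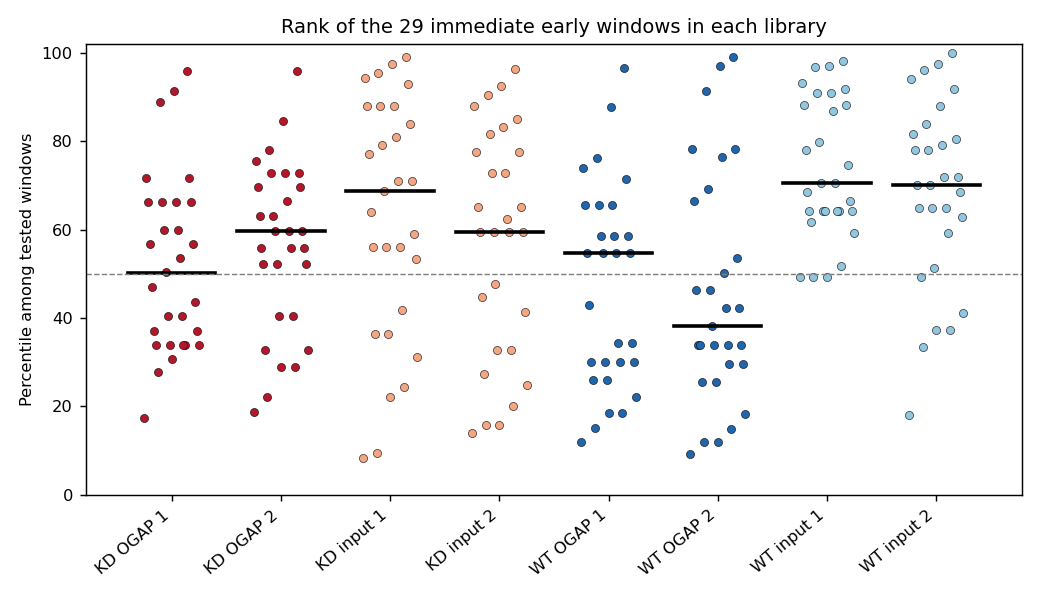
Percentile of each of the 29 tested immediate early windows among all tested windows (y axis, 50 is the middle window), by library (x axis). Points are genes and bars their median, which was 38.3 in the second WT OGAP library and 70.5 and 70.2 in WT input.

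OGAP over input in WT cells asks which promoters the pull-down held more or less of than their input. JUND, JUNB, EGR3, DUSP5, KLF10 and SRF were lower in WT OGAP than in WT input, with log2 changes of -1.64 to -1.10. NR4A1 and IER3 were higher, with log2 changes of 1.07 and 1.11. In all, 8 of 29 tested members passed (27.6%, edgeR quasi-likelihood test, Benjamini-Hochberg adjusted p under 0.05, n = 2 libraries per group), against 13.7% of all tested windows. The 6 lower members were 20.7% of those tested, against 4.45% of all windows, and the 2 higher ones 6.9%, against 9.25%. The median log2 change of the 29 was -0.49, against -0.02 for all tested windows, and 23 of 29 lay below 0, against 51.3% of all. Both WT OGAP libraries were below both WT input libraries for 16 of 29 members (against 28.0% of windows) and above them for 4 (against 28.5%). The count of 8 was lower when any 1 WT library was left out, while the median over the 29 ranged from -0.705 to -0.484 when single libraries were left out. With DESeq2 it became 2, JUND and JUNB (6.9% of members, against 5.16% of windows, both directions together). Both of these members were lower, and of the 17130 windows DESeq2 called 142 lower and 742 higher.

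In the AP-1 group, whose products pair with each other to bind AP-1 sites, the JUN paralogs JUND and JUNB changed and the other 5 tested members did not pass. JUND (ENSG00000130522, hg38 chromosome 19, 18280623 to 18282623, minus strand), the family member that many resting cells also transcribe, held 29 and 25 reads in KD OGAP against 56 and 34 in KD input. It held 14 and 10 reads in the WT OGAP pair, against 74 and 81 in WT input, or 39.8 and 26.4 CPM against 100.4 and 105 CPM. The WT libraries did not overlap, while those of KD did when scaled, at 52.3 and 56.4 CPM in OGAP against 80.7 and 51.8 CPM in input. The log2 change of OGAP over input was -0.29 ± 0.35 in KD (SE, adjusted p = 0.786, edgeR) and -1.64 ± 0.38 in WT (adjusted p = 0.00144).

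JUNB (ENSG00000171223, hg38 chromosome 19, 12790495 to 12792495, plus strand), which encodes a partner of FOS proteins, held 26 reads in each KD OGAP library against 70 and 56 in KD input. In WT it held 11 and 16 reads in OGAP against 79 and 72 in input. Scaled for depth, this was 46.8 and 58.7 CPM in KD OGAP against 101 and 85.3 CPM in KD input, and 31.2 and 42.3 CPM in WT OGAP against 107 and 93.4 CPM in WT input. JUNB was thus lower in OGAP than in its own input, without overlap of the libraries in either state. Its log2 change was -0.83 ± 0.33 in KD (adjusted p = 0.233, edgeR; unadjusted p = 0.013) and -1.44 ± 0.36 in WT (adjusted p = 0.00361).

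The other AP-1 members gave log2 changes in WT of -0.69 ± 0.38 for FOS, -0.49 ± 0.38 for FOSL1, -0.36 ± 0.38 for FOSB, -0.27 ± 0.36 for JUN and 0.16 ± 0.38 for ATF3, a stress-induced repressor of the family. None of these 5 passed, and the lowest adjusted p was 0.224, for FOS. The median over the 7 AP-1 windows was -0.01 in KD and -0.49 in WT.

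Among the zinc finger families, EGR3 and KLF10 changed. EGR3 (ENSG00000179388, hg38 chromosome 8, 22692303 to 22694303, minus strand), a paralog of EGR1, held 26 and 17 reads in KD OGAP against 53 and 39 in KD input, and 15 and 10 in the WT OGAP pair, against 63 and 58 in WT input. Its log2 change was -0.66 ± 0.36 in KD (adjusted p = 0.454, edgeR) and -1.22 ± 0.39 in WT (adjusted p = 0.025). EGR3 did not pass in WT without the second WT OGAP library (adjusted p = 0.248), without either WT input library (0.113 and 0.0797) or with DESeq2 (0.116). The libraries did not overlap in either state, at 26.4 to 46.8 CPM over the 4 OGAP libraries and 59.4 to 85.4 CPM over the 4 inputs. EGR1, which encodes the early growth response factor that is often used as a marker of induction, gave 0.18 ± 0.34 in KD and -0.32 ± 0.35 in WT.

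KLF10 (ENSG00000155090, hg38 chromosome 8, 102654903 to 102656903, minus strand), a TGF-beta-inducible repressor, held 33 and 25 reads in KD OGAP against 46 and 49 in KD input, and 13 and 9 in the WT OGAP pair, against 46 and 54 in WT input. The log2 change was -0.28 ± 0.35 in KD (adjusted p = 0.8, edgeR) and -1.13 ± 0.41 in WT (adjusted p = 0.0495). OGAP and input did not overlap in either state. KLF10 was the member nearest to the threshold on the inner side, and it did not pass with DESeq2 (adjusted p = 0.17), without overlapping windows (0.0528) or with the 4 WT libraries alone (0.0533). Nor did it pass when any 1 WT library was left out (adjusted p = 0.0642 to 0.321, edgeR) or either KD input library (0.0549 and 0.0555), and without the second WT OGAP library its log2 change in WT was -0.84. KLF6, a widely expressed member with a log2 change in WT of -1.08 ± 0.40, stood just outside it (adjusted p = 0.0572).

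The other KLF windows had estimates of both signs. KLF2, known from blood flow responses of endothelium, had a log2 change of -0.54 ± 0.33 in KD and 0.07 ± 0.33 in WT. KLF4, a reprogramming factor, gave 0.32 ± 0.37 in KD and 0.77 ± 0.36 in WT, and did not pass in either (adjusted p = 0.783 in KD and 0.143 in WT, edgeR). It held 43.2 and 74.5 CPM in KD OGAP against 57.6 and 35.0 CPM in KD input, and 65.3 and 106 CPM in WT OGAP against 54.2 and 46.7 CPM in WT input. The KLF4 libraries overlapped in KD and not in WT.

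The NR4A receptors act without a known hormone ligand and follow calcium and cyclic AMP signals. NR4A1 (ENSG00000123358, hg38 chromosome 12, 52021831 to 52023831, plus strand) held 38 and 46 reads in KD OGAP against 40 and 39 in KD input, and 46 and 61 in the WT OGAP pair, against 47 and 58 in WT input. Scaled for depth, KD OGAP stood at 68.5 and 104 CPM against 57.6 and 59.4 CPM in KD input, and WT OGAP at 131 and 161 CPM against 63.7 and 75.2 CPM in WT input. NR4A1 was thus higher in each of the 4 OGAP libraries than in the input of the same state, with the WT OGAP libraries highest. Its log2 change was 0.54 ± 0.31 in KD (adjusted p = 0.492, edgeR) and 1.07 ± 0.30 in WT (adjusted p = 0.00849). The window lies at the outermost RefSeq start of NR4A1, and whether this is the induced start was not tested. NR4A1 did not pass in WT without the second WT OGAP library (adjusted p = 0.121), without the first WT input library (0.0861) or with DESeq2 (0.0562). NR4A3, its paralog, gave 0.07 ± 0.39 in KD and an estimate of the opposite sign to NR4A1 in WT, -1.07 ± 0.41, which did not pass (adjusted p = 0.062).

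The DUSP genes encode phosphatases that switch off MAP kinases. DUSP5 (ENSG00000138166, hg38 chromosome 10, 110496837 to 110498837, plus strand), which acts on nuclear ERK, held 49 and 22 reads in KD OGAP against 81 and 62 in KD input, and 23 and 17 in the WT OGAP pair, against 73 and 117 in WT input. The libraries did not overlap in either state, at 88.3 and 49.7 CPM in KD OGAP against 117 and 94.4 CPM in KD input, and 65.3 and 44.9 CPM in WT OGAP against 99.0 and 152 CPM in WT input. The second WT input library gave DUSP5 its highest level, at percentile 99.9 of that library. The log2 change was -0.59 ± 0.31 in KD (adjusted p = 0.418, edgeR) and -1.19 ± 0.33 in WT (adjusted p = 0.00849). DUSP5 did not pass in WT without the second WT input library (-0.85, adjusted p = 0.206), without the second WT OGAP library (adjusted p = 0.14) or with DESeq2 (0.0698). DUSP1, which acts on JNK and p38 as well as ERK, gave -0.96 ± 0.38 in WT and DUSP6, the cytoplasmic ERK phosphatase, -0.28 ± 0.36. Neither passed, at adjusted p = 0.0788 for DUSP1 and 0.643 for DUSP6.

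SRF (ENSG00000112658, hg38 chromosome 6, 43170298 to 43172298, plus strand) held 32 and 27 reads in KD OGAP against 41 in each KD input library, and 14 and 16 in the WT OGAP pair, against 66 and 67 in WT input. Its libraries within a group lay close together, at 57.7 and 60.9 CPM in KD OGAP against 59.1 and 62.5 CPM in KD input, and at 39.8 and 42.3 CPM in WT OGAP against 89.5 and 86.9 CPM in WT input. OGAP and input overlapped in KD and stood far apart in WT. The log2 change was -0.04 ± 0.35 in KD (adjusted p = 0.978, edgeR) and -1.10 ± 0.37 in WT (adjusted p = 0.033). SRF did not pass in WT when any 1 of the 4 WT libraries was left out (adjusted p = 0.102 to 0.127) or with DESeq2 (adjusted p = 0.124).

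IER3 (ENSG00000137331, hg38 chromosome 6, 30743555 to 30745555, minus strand), a stress-inducible survival gene, held 31 and 19 reads in KD OGAP against 19 and 23 in KD input, and 26 and 51 in the WT OGAP pair, against 48 and 25 in WT input. Its window overlaps another, so its reads are uncertain. Scaled for depth, it stood at 55.9 and 42.9 CPM in KD OGAP against 27.4 and 35.0 CPM in KD input, and at 73.8 and 135 CPM in WT OGAP against 65.1 and 32.4 CPM in WT input. OGAP and input did not overlap in either state, but the libraries of each WT group were far apart. The log2 change was 0.67 ± 0.41 in KD (adjusted p = 0.513, edgeR) and 1.11 ± 0.36 in WT (adjusted p = 0.0259). Without the second WT OGAP library it was 0.60 in WT (adjusted p = 0.483), and without the second WT input library 0.68 (adjusted p = 0.377), and with DESeq2 it did not pass either (adjusted p = 0.167).

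**Figure D2:**
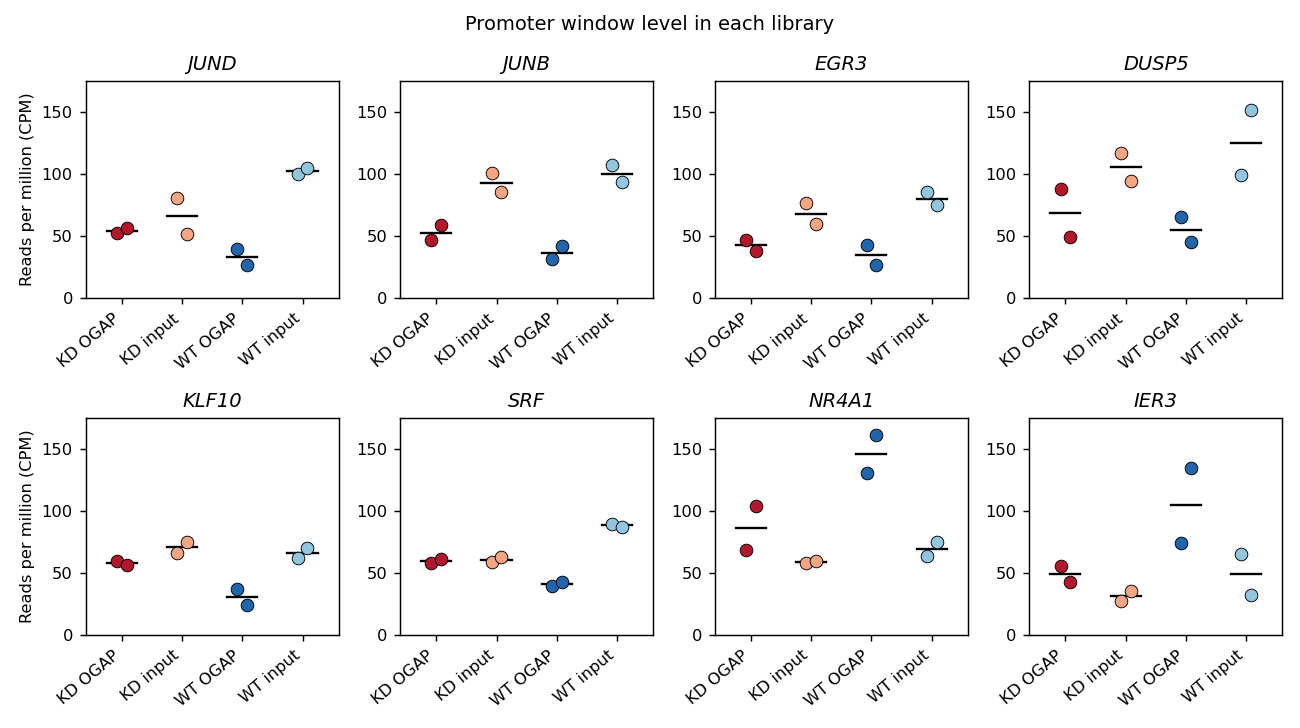
Depth-scaled reads (CPM, y axis) at the 8 immediate early windows that changed between OGAP and input in WT, by group (x axis). Points are libraries and bars the mean of 2. JUND, JUNB, EGR3, DUSP5, KLF10 and SRF are lower in WT OGAP than in WT input, and NR4A1 and IER3 higher.

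Among the remaining members, BTG2, ZFP36 and GADD45B lay below 0 in WT without passing, in a list where 23 of 29 members lay below 0. BTG2, an antiproliferative gene, gave -0.92 ± 0.38, ZFP36 -0.85 ± 0.34 and GADD45B, a stress sensor that acts on MAP kinase kinase kinases, -0.70 ± 0.35. For these 3, both WT OGAP libraries lay below both WT input libraries, as for 16 of the 29 members and 28.0% of windows. The lowest adjusted p among the 3 was 0.081, for ZFP36 (edgeR). The secreted matricellular genes CCN2 and CCN1 gave -0.49 ± 0.40 and -0.25 ± 0.40. MYC gave -0.31 ± 0.39, IER5 -0.11 ± 0.34, the kinase gene SGK1 -0.26 ± 0.43 and the survival gene MCL1 0.56 ± 0.35.

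OGAP over input in KD cells called none of the 29 members (edgeR, adjusted p under 0.05, against 0.736% of all tested windows, 0.630% higher and 0.105% lower). DESeq2 called none of them either (against 0.234% of windows). Their median log2 change was -0.07, against 0.03 for all windows, and 17 of 29 lay below 0, against 47.5% of windows. The range ran from -0.83 ± 0.33 for JUNB to 0.80 ± 0.41 for SGK1, and JUNB alone had an unadjusted p under 0.05 (1 of 29, or 3.45%, against 12.6% of windows). Both OGAP libraries lay below both inputs for 9 members, against 19.6% of windows, and above them for 6, against 24.3%. Median log2 changes by family in KD were -0.24 for EGR, -0.27 for KLF, 0.30 for NR4A and -0.21 for DUSP. In WT they were -0.77 for EGR, -0.50 for KLF, 0.00 for NR4A and -0.96 for DUSP.

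**Figure D3:**
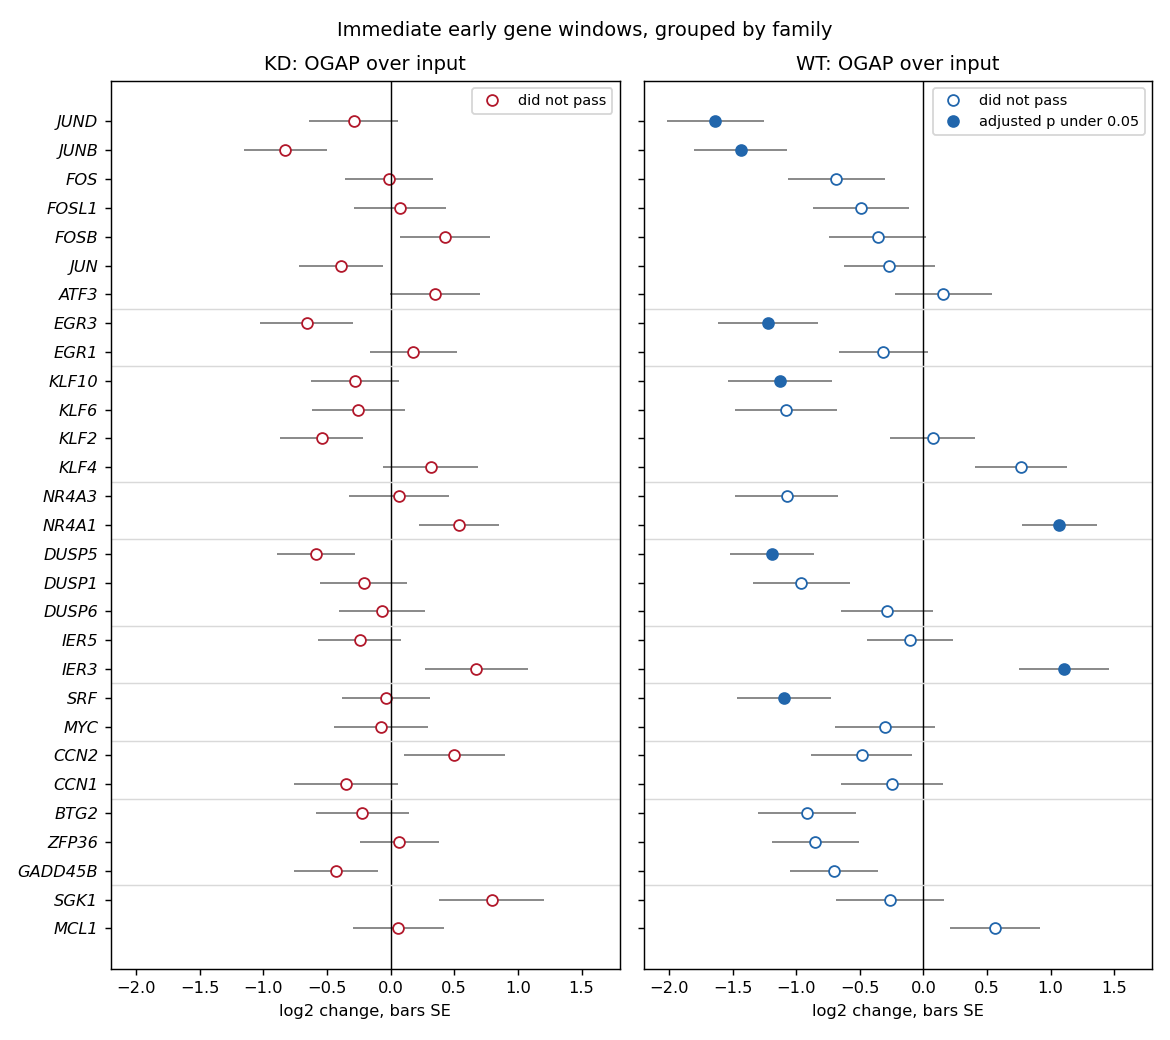
Log2 change of OGAP over input (x axis, bars SE) for the 29 tested immediate early windows, ordered by family (y axis), in KD and in WT. Filled points passed the edgeR test at adjusted p under 0.05, none in KD and 8 in WT.

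The interaction tests whether OGAP over input differed between KD and WT. No member passed (edgeR, against 0.00584% of windows), and DESeq2 called none (against 0%). The call of none in KD and of 8 in WT is therefore not shown to be a difference between the states. JUND had the largest estimate, 1.34 ± 0.52 (adjusted p = 0.499, unadjusted p = 0.0117, 95% interval 0.32 to 2.37). NR4A3 at 1.14 ± 0.57 and SRF at 1.06 ± 0.51 were the other members with an unadjusted p under 0.05, which makes 3 of 29 (10.3%), against 8.14% of windows. SGK1 at 1.06 ± 0.59, CCN2 at 0.99 ± 0.56 and ZFP36 at 0.92 ± 0.46 followed in size. The median estimate was 0.56, against 0.02 for all windows, and 21 of 29 lay above 0, against 51.1% of windows. Below 0 were KLF2 at -0.62 ± 0.47, NR4A1 at -0.53 ± 0.43, MCL1 at -0.50 ± 0.50, KLF4 at -0.45 ± 0.52, IER3 at -0.43 ± 0.54 and 3 others between -0.14 and -0.10.

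KD against WT was also read within the pull-down and within the input. The first shares the KD OGAP and WT OGAP libraries with the comparisons above, and the second the KD input and WT input libraries. The values of OGAP over input for each member are therefore not independent of either. Within OGAP, none of the 29 members passed (edgeR, against 0.0350% of windows, 0.0175% in each direction), and DESeq2 called none (against 0%). The members with an unadjusted p under 0.05 were KLF10 at 0.94 ± 0.43, NR4A1 at -0.78 ± 0.30 and IER3 at -1.07 ± 0.37, or 10.3% of members against 10.6% of windows. The lowest adjusted p was 0.297, for IER3. The median was 0.28, against 0.01 for all windows, and 22 of 29 lay above 0, against 50.8%. All 7 AP-1 windows were among the 22, from 0.12 ± 0.38 for JUN to 0.72 ± 0.42 for JUND, with a median of 0.50. The 3 DUSP and 2 EGR windows were too, with medians of 0.35 and 0.22. Both KD OGAP libraries stood above both WT OGAP libraries for 10 members, against 19.6% of windows, and below them for 4, against 19.9%.

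Within input, no member passed either (edgeR, against 0% of windows), and DESeq2 called none (against 0%). The median was -0.24, against -0.01 for all windows, and 22 of 29 lay below 0, against 51.1%. Both KD input libraries stood below both WT input libraries for 12 members, against 17.7% of windows, and above them for 2, JUN and KLF2, against 17.3%. NR4A3 at -0.75 ± 0.35, CCN2 at -0.74 ± 0.37 and JUND at -0.63 ± 0.31 had an unadjusted p under 0.05 (3 of 29, 10.3%, against 4.41% of windows), with an adjusted p of 0.999 each. The JUND libraries of KD and WT did not overlap in either kind of DNA, with 52.3 and 56.4 CPM in KD OGAP against 39.8 and 26.4 CPM in WT OGAP, and 80.7 and 51.8 CPM in KD input against 100.4 and 105 CPM in WT input. Without the second KD input library the median over the members was -0.11.

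**Figure D4:**
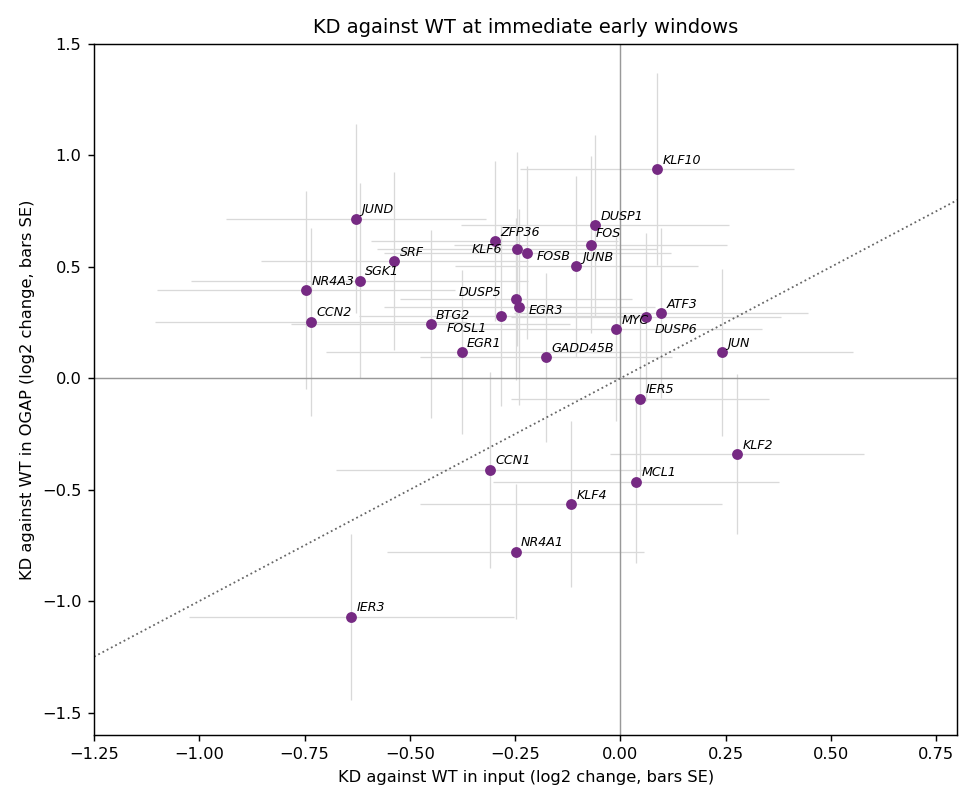
Log2 change of KD against WT within OGAP (y axis) and within input (x axis) for the 29 immediate early windows, with SE bars. The dotted line marks equal change. The median was 0.28 within OGAP and -0.24 within input, and no window passed the test in either.

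Base composition moved with OGAP over input. The promoter sequence was at hand for 21 of the 29 tested members, and their median GC content over 300 bases was 67.3%, against 63.0% for the 9974 tested windows with a sequence. Over those windows the median log2 change of OGAP over input in KD was -0.21 above 75% GC and 0.26 below 40% GC. In WT it was -0.49 above 75% GC and 0.30 below 40% GC. The median interaction over those windows was 0.28 above 75% GC and -0.09 below 40% GC. For KD against WT the 2 medians were -0.10 and 0.19 within input, and 0.15 and 0.12 within OGAP. Members ranged from 38.0% GC in SGK1 to 80.7% in KLF2. JUND had 77.0% and 49 CpG sites, JUNB 71.0% and 29, SRF 59.3% and 23, and NR4A1 53.3% and 5. Across the 21 members, Pearson's r between GC and the log2 change was -0.68 in KD and -0.39 in WT. This is a description over windows of shared libraries, and across all 9974 windows r was -0.26 in KD and -0.34 in WT. For the interaction, r was -0.01 across the 21 members and 0.18 across all 9974 windows.

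A GC offset was fitted over the windows that have a sequence. In WT, 626 of the 9982 windows in this fit were higher in OGAP than in input and 166 lower. No other covered member passed there, and the 4 members that passed in WT and have a sequence still did. Their log2 changes were then -1.21 ± 0.38 for JUND (adjusted p = 0.0328, edgeR), -1.18 ± 0.36 for JUNB (adjusted p = 0.0293), -1.15 ± 0.36 for SRF (adjusted p = 0.0351) and 0.92 ± 0.30 for NR4A1 (adjusted p = 0.037). With 21 of 29 members (72.4%) covered, the check is void for the whole list. The part of base composition in its medians, in this or any other comparison, was not tested.

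**Figure D5:**
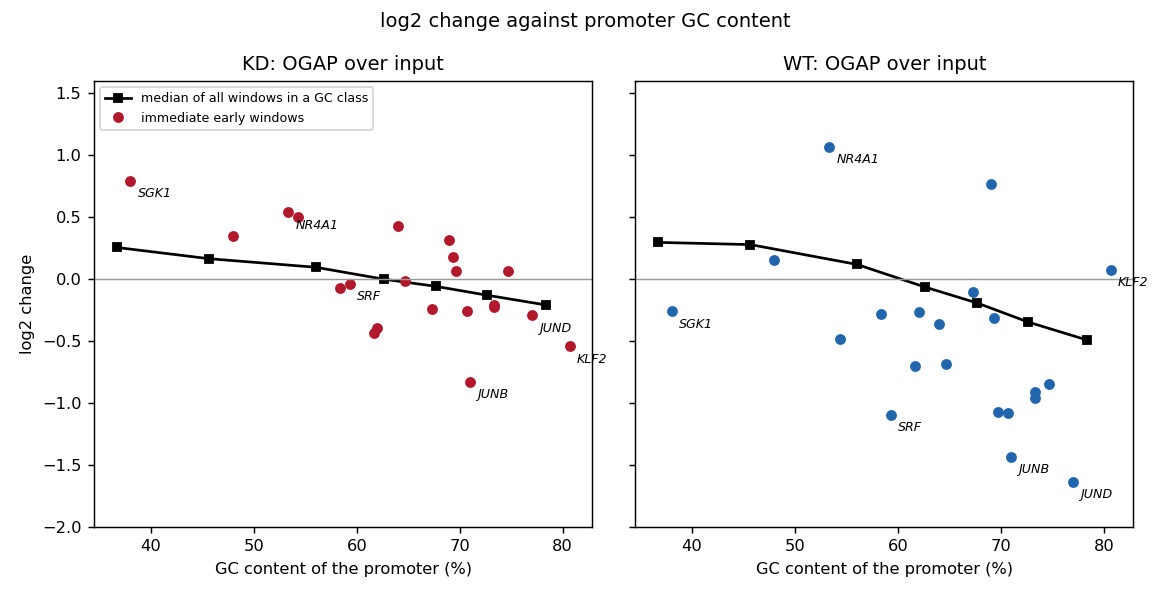
Log2 change of OGAP over input (y axis) against GC content of the promoter (x axis, %), in KD and in WT. Round points are the 21 immediate early windows with a sequence and squares the median of all windows in a GC class, which was -0.21 in KD and -0.49 in WT above 75% GC.

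Relatives of the members and the signalling genes upstream of them were read for comparison, 80 genes of which 68 were tested. In WT, 10 were lower in OGAP than in input and 1 was higher (edgeR, 14.7% lower, against 4.45% of windows, and 1.47% higher, against 9.25%). Of 6 tested KLF relatives, KLF13 at -1.77 ± 0.43 (adjusted p = 0.00214), KLF15 at -1.39 ± 0.38 (adjusted p = 0.00707) and KLF11 at -1.20 ± 0.40 (adjusted p = 0.0307) were lower. Of 8 tested DUSP relatives, DUSP8 and DUSP16, phosphatases of JNK and p38, were lower at -1.43 ± 0.37 and -1.31 ± 0.42. JDP2, a repressor that pairs with JUN, was lower at -1.18 ± 0.39 among 6 AP-1 relatives, and BCL2A1, a survival gene of the BCL2 family like MCL1, was higher at 1.24 ± 0.41 among 16 relatives of the other members. Of 30 upstream signalling windows, 4 were lower: the kinase genes RPS6KA3 at -1.71 ± 0.47 and MAP2K4 at -1.51 ± 0.48, and the SRF partner genes ELK1 at -1.41 ± 0.41 and MRTFA at -1.16 ± 0.36. DESeq2 called 2 of the 68 in WT (2.94%, against 5.16% of windows). By edgeR, none of the 68 passed in KD OGAP over input (against 0.736% of windows) or in the interaction (against 0.00584%). Nor did any in KD against WT within OGAP (against 0.0350%) or within input (against 0%). DESeq2 called none of them in these comparisons, against 0.234% of windows in KD OGAP over input and 0% in the others. An unadjusted p under 0.05 (edgeR) was found for 6 (8.82%) in KD OGAP over input, against 12.6% of windows, for 6 in the interaction, against 8.14%, for 6 in KD against WT within OGAP, against 10.6%, and for 4 (5.88%) within input, against 4.41%.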

How the data were processed

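Genomic DNA of 8 libraries was read from 1 table. The deposited values are whole-number counts of reads per 2001 bp promoter window, made by the authors. Per the submitters' processing notes, the build was hg38 and the tools were featureCounts, MACS2, bedtools and BWA 0.7.17-r1188. Their options and the handling of duplicates are not stated there. Tables of coverage summed over genes were not used. The table gives Ensembl identifiers without symbols. A window took the symbol of a protein-coding RefSeq gene (GRCh38.p14) on its strand whose start was at most 500 bp from its centre, where only 1 gene met this. A member not found so was matched to the single window that holds its start. This named 14877 windows (74.5%), against 1.58% once the windows were displaced along the chromosome. Windows that overlap another (18.7%) have uncertain counts.

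The members and lists were chosen with earlier results of these data known. Members that passed a test, and the member with the lowest p in each of the 5 families, are given with reads in all libraries, the others by log2 change, and genes of other lists only where they passed.

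Counts were tested with edgeR 4.0.16 (R 4.3.3) on 17130 windows kept by filterByExpr, with TMM scaling, 4 group means over all 8 libraries, the quasi-likelihood test and Benjamini-Hochberg adjustment over all windows of a comparison, at a threshold of 0.05. The common biological coefficient of variation was 0.178. With 98.4 prior and 4 residual degrees of freedom, the spread of a window was drawn strongly to that of all windows, and the SE, taken as the absolute log2 change over the root of F, is approximate. Intervals cover this model only. Only the edgeR test of OGAP over input in WT was tried on simulated counts, with changes placed in windows at or above the median level. Alternatives were RLE and upper quartile scaling, no count filter, DESeq2 1.42.0, the libraries of a comparison alone, no overlapping windows, a GC offset, the replicate number as a block, and leaving out each library.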

Additional observations from a re-analysis of the deposited data

How the results depend on the processing

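The count of 8 members that passed in OGAP over input in WT was 2 with DESeq2 (5.16% of all windows passed there, against 13.7% with edgeR). When 1 WT library was left out, the count and the share of all windows that passed were both lower than in the main fit. The count was 8 with RLE scaling (27.6% of members, against 13.7% of windows) and with no count filter (26.7%, against 12.3%). Upper quartile scaling gave 10 (34.5%, against 13.7%) and added KLF6 and NR4A3. The WT libraries alone gave 7 (24.1%, against 14.7%), and the fit without overlapping windows 6 (21.4%, against 13.4%). JUND did not pass without the second WT OGAP library (adjusted p = 0.0541, edgeR) and JUNB did not pass without the first (adjusted p = 0.0558), and both passed under every other setting tried. The cause of these differences was not tested. In the other comparisons no setting called a member. The median over the members for KD against WT within input was -0.24 and ranged from -0.32 to -0.11 when single libraries were left out. The corresponding ranges were 0.16 to 0.29 for KD against WT within OGAP, -0.70 to -0.48 for OGAP over input in WT, -0.18 to 0.06 for OGAP over input in KD and 0.42 to 0.66 for the interaction. The called members kept their sign in OGAP over input in WT under each setting that gave them a value; EGR3, DUSP5, KLF10 and IER3 have none with the GC offset, and IER3 none without overlapping windows. The labels do not say whether replicate numbers pair the samples. Same-numbered libraries deviated from their group means with correlations of -0.04 to 0.02. With so few reads per window, these values cannot tell whether such libraries share a culture. With the number as a block, 6 members passed in WT (20.7%, against 11.7% of windows), without IER3 and KLF10, and none in the other comparisons. The GC offset was not applied to the lists, because fewer than 80% of the members have a sequence. With 9 to 61 reads per called member in the WT OGAP libraries, counting error alone was large for a single window.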
